A study of Mus musculus with 6 samples.

Results

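The genes described here are the Polycomb and trithorax chromatin regulators of mouse embryonic stem (ES) cells with and without Dppa2: 35 genes, listed by name, that encode subunits of both systems and the demethylases that act on their histone marks. Of these, 33 were measured among 13297 named genes tested, and Kmt2a and Setd1b were not analysed here. Each gene was read from 1 probe, the one with the highest mean signal over the arrays, and the probes of all 33 members were well above background on all 6 arrays. Levels are log2 signals relative to the 75th percentile of each array, so that 0 is that percentile and 1 unit is a doubling. Levels of different genes come from different probes and are not compared.

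Dppa2, which the labels also call ECAT15-2, is a DNA-binding protein of pluripotent cells, and the study asked what changes in its absence and what its return alters. RNA was measured in 3 groups of 2 arrays. Wild-type lines were 15-1+/+ and 15-2+/+ and carried no vector. Mock knockout lines (15-2KO_mock) were 15-1CT/CT and 15-2-/- and carried the empty vector piggyBac-CAG-IP. Flag-Dppa2 knockout lines (15-2KO_Flag15-2) were these knockout lines with piggyBac-CAG-Flag15-2-IP, in which the strong, widely active CAG promoter drives Flag-tagged Dppa2. CT is a conditional targeted allele of ECAT15-1, the neighbour of Dppa2 also known as Dppa4, and both knockout groups carry it while wild type does not. The lines came from E3.5 blastocysts of mixed 129Sv and C57BL6 background, replicates 1 and 2 came from different mothers, and each knockout line is represented once in mock and once in Flag-Dppa2, under the same number. All cells were grown for 3 days on gelatin in medium with 15% serum and LIF. Each comparison with wild type therefore also contains the transduction and the Dppa4 allele.

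Dppa2 itself followed the labels, with levels of 2.13 and 2.07 in wild type, -2.09 and -2.003 in mock and -0.05 and 0.35 in Flag-Dppa2, so that the transgene returned its signal in part (limma with Benjamini-Hochberg adjustment, adjusted p = 0.006 for mock against wild type and 0.027 for Flag-Dppa2 against mock). It remained below wild type by -1.95 (adjusted p = 0.041). All 8 pluripotency markers tested were well above background on every array. Utf1 was called higher in mock than in wild type, by 0.87 (limma adjusted p = 0.0384). Pou5f1 (Oct4) differed from wild type by 0.78 in mock and by 2.26 in Flag-Dppa2 (adjusted p = 0.124 and 0.0519). In each knockout group the mean of 7 of the 8 was above wild type and that of Tdgf1 below it. Flag-Dppa2 minus mock was 1.48 for Pou5f1 and below zero for the other 7, with a median of -0.23 over the 8 and 0 called. Of 15 fibroblast and feeder markers, 14 were above background on both wild-type arrays, 9 on both mock arrays and 11 on both Flag-Dppa2 arrays, and Twist2, Loxl1, Dcn and Fbn1 were above background on neither mock array. Of the 15, 4 were called lower in mock than in wild type: Mmp2, by -4.28, Loxl1, at least 8.59-fold, Fbn1, at least 3.53-fold, and Twist2, at least 4.10-fold. Mmp2, Loxl1 and Fbn1 were called higher again in Flag-Dppa2 than in mock, Mmp2 by 3.91 (adjusted p = 0.0166). The summed level of these markers, as log2 of the sum of their signals, was 5.46 to 5.56 in wild type, 4.98 to 5.39 in mock and 5.17 to 5.44 in Flag-Dppa2. The 3 Y-linked genes tested were above background in wild type and in none of the 4 knockout arrays, so the sex of the embryos cannot be told apart from the genotype. Trophectoderm markers summed to 6.25 to 6.27, 4.72 to 5.57 and 5.42 to 7.14 in the same order, all 6 tested being above background on every array, and primitive endoderm markers to 0.20 to 0.24, 0.68 to 0.79 and 0.77 to 1.34, with Gata4 and Pdgfra below background on both wild-type arrays. In bulk RNA, fewer cells of a type and less RNA per cell cannot be told apart. The part of these marker differences in the results below was not tested. Both Flag-Dppa2 arrays were on a slide of their own, so slide and Flag-Dppa2 cannot be told apart, whereas wild type and mock shared a slide. Over 14943 bright spots, 0.442% of the differences between the wild-type arrays were beyond the 95% limit of the scanner's own error, where 5% were due, against 22.2% between the mock arrays and 24.7% between the Flag-Dppa2 arrays. The wild-type arrays may thus be 1 sample hybridised to both arrays. Their values are given as a mean without an error, and for the members called the adjusted p with wild type counted as 1 sample is given as well. Counted so, no feature of the array passed the test in any of the 3 comparisons, Dppa2 included. Nothing in the labels says that arrays of a group were separate cultures beyond the different mothers, so p-values measure the spread between these arrays.

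Polycomb proteins keep developmental genes silent in ES cells. Polycomb repressive complex 2 (PRC2) methylates lysine 27 of histone H3, and PRC1 ubiquitinates histone H2A; PRC1 comes in several forms that are set by which PCGF subunit joins its RING ligase. Trithorax proteins act in the opposite direction, chiefly as COMPASS-type complexes that methylate lysine 4 of histone H3, and many developmental genes of ES cells carry both marks at their promoters.

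Loss of Dppa2 went with a change in 3 of the 33 regulators, Pcgf5, Bmi1 and Cbx7, whose products are subunits of PRC1; whether PRC1 genes differed from the others was not tested. Pcgf5, a subunit of a variant PRC1, fell 2.31-fold in mock knockout cells. Bmi1, the PCGF subunit of a canonical PRC1, rose 3.75-fold by the probe used, and Cbx7, the main reader of methylated lysine 27 in canonical PRC1 of ES cells, rose 1.60-fold. The other 30 did not pass the test, among them every measured member of PRC2, of the COMPASS complexes and of the demethylases. The 3 calls were 9.09% of the members, near the background, as 6.12% of all 18763 features tested were called in the same fit, with 2.47% higher and 3.65% lower. The members' median log2 difference was 0.13 against 0.05 over all features. Of the 33, 22 lay above zero, against 10216 of the 18763 features. By size, 7 of 33 members differed 1.5-fold or more (21.2%), below the 26.3% of all features. At an unadjusted p under 0.05 there were 11 members (33.3%) against 27.3% of all features. The calls rest on the wild-type arrays being separate samples: counted as 1 sample, or with either of them left out, no member and no feature of the array was called in this comparison (2281 features had an unadjusted p under 0.05 with wild type as 1 sample). Without either mock array, no member was called.

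**Figure D1:**
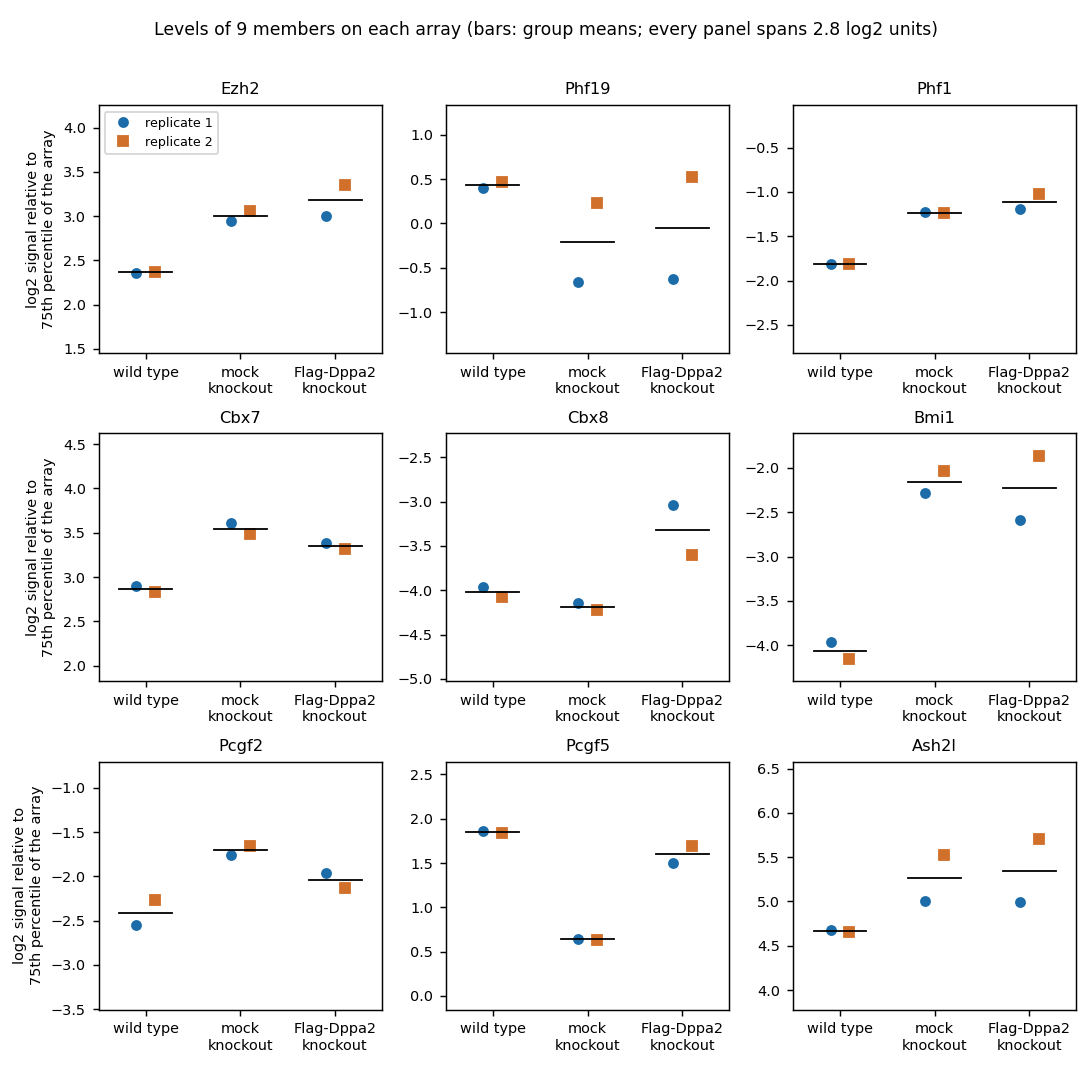
Level of the 9 members that were called or differed at least 1.5-fold in any comparison, as log2 signal relative to the 75th percentile of each array (vertical axis), for wild-type, mock knockout and Flag-Dppa2 knockout arrays (horizontal axis); circles are replicate 1, squares replicate 2 and bars group means. Pcgf5 is low on both mock arrays alone, at 0.65 and 0.63, while Bmi1 and Cbx7 are higher on all 4 knockout arrays than on both wild-type arrays.

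The PCGF subunits held the 2 members with the farthest differences from zero, in opposite directions. Pcgf5, which with a RING protein forms a variant PRC1 that can place ubiquitin on H2A without methylated lysine 27, had levels of 1.86 and 1.84 in wild type, 0.65 and 0.63 in mock, and 1.499 and 1.70 in Flag-Dppa2. Both mock arrays lay below all 4 other arrays, and both Flag-Dppa2 arrays lay between mock and wild type. From a wild-type mean of 1.85, the mock mean was 0.64 ± 0.01 (SD, n = 2), a log2 difference of -1.21 with SE 0.11, a 95% interval of -1.49 to -0.92 and a limma adjusted p of 0.0166. With wild type as 1 sample the adjusted p was 0.211, and without mock replicate 1 or 2 it was 0.0635 and 0.0656. With the replicate number as a block it was 0.0428.

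Bmi1, also known as Pcgf4, is the subunit best known for repressing the Cdkn2a locus in stem cells. Its levels were -3.96 and -4.16 in wild type, -2.28 and -2.03 in mock, and -2.59 and -1.86 in Flag-Dppa2, so all 4 knockout arrays lay above both wild-type arrays. The mock mean of -2.16 ± 0.18 (SD, n = 2) stood 1.91 above the wild-type mean of -4.06 on the log2 scale (SE 0.28, 95% interval 1.16 to 2.66, limma adjusted p = 0.0401). The adjusted p was 0.298 with wild type as 1 sample and 0.064 with the replicate block, and it stayed under the threshold within the slide that wild type and mock share, at 0.0309. The probe used was dim in wild type, where the lowest signals well above background were -4.96 and -4.74. With normexp background correction its mock minus wild-type difference was 1.18. A second, dimmer Bmi1 probe did not show this difference: its levels were -4.77 and -3.15 in wild type, -4.16 and -3.95 in mock, and -4.39 and -3.97 in Flag-Dppa2. The second probe's mock minus wild-type difference was -0.09 with an SE of 0.57, and with the probes averaged Bmi1 was not called. The wild-type arrays of the second probe spanned all 4 knockout arrays, so the Bmi1 change is a statement about 1 of its 2 probes.

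Pcgf2, also known as Mel18, is the close relative of Bmi1 that predominates in canonical PRC1 of ES cells. Its levels were -2.55 and -2.27 in wild type, -1.76 and -1.66 in mock and -1.96 and -2.14 in Flag-Dppa2. All 4 knockout arrays were above both wild-type arrays, and the mock difference of 0.71 (SE 0.15) had a limma adjusted p of 0.0674. The remaining PCGF subunits gave no call: Pcgf1, of the variant complex with Bcor and Kdm2b, differed by -0.06, Pcgf3 by 0.13 and Pcgf6, of the variant complex with Mga and Max, by -0.13. Their 95% intervals were -0.53 to 0.42, -0.15 to 0.42 and -0.70 to 0.43.

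The upstream sequences of the 3 called members are shown because the groups differ in their transcripts and because Dppa2 is known as a factor that binds CpG-rich promoters. Each is the stretch of 250 bases before a RefSeq start site in build GRCm38.p6, written 5' to 3' on the strand of the gene, with CpG dinucleotides in capitals. For Pcgf5 it is the most upstream of 3 annotated starts, at chr19:36348079-36348328 on the plus strand; Bmi1 is at chr2:18676768-18677017 on the plus strand and Cbx7 at chr15:79932647-79932896 on the minus strand.
Pcgf5: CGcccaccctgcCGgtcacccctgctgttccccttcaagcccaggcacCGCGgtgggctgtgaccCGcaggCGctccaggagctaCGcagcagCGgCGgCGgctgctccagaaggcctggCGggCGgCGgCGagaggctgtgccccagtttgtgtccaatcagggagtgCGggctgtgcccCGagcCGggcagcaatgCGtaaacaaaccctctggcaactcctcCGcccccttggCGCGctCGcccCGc
Bmi1: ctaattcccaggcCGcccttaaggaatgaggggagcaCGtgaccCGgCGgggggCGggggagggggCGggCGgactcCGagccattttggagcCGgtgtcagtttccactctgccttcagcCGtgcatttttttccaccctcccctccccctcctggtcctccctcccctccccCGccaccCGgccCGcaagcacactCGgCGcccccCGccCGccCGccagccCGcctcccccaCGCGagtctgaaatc
Cbx7: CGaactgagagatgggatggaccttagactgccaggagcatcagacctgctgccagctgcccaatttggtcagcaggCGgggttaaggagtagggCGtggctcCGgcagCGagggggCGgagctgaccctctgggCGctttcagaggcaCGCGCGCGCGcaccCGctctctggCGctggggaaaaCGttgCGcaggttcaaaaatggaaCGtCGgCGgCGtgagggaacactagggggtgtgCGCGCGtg

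All 3 stretches were CpG-rich. The Pcgf5 stretch had 71.6% G and C and 23 CpG, that of Bmi1 70.4% and 21, and that of Cbx7 64.8% and 23. The 2 other Pcgf5 starts had 4 and 28 CpG. Over 37 such stretches of the 28 members with an entry, the medians were 66% and 21 CpG, against 52.4% and 6 over 32851 stretches of 27025 genes, so the called members had CpG counts close to those of the other members. The letters CACGTG, an E-box, were present in the stretches of 6 of 37 (16.2%) against 6.02% of all, the letters GCCATNTT, a core of the YY1 and REX1 motif, in 4 (10.8%) against 3.91%, and TTTCCCGC, an E2F-type element, in 2 (5.41%) against 0.895%; both strands were read. The Bmi1 stretch held 1 CACGTG and 1 GCCATNTT, and the stretches of Pcgf5 and Cbx7 held none of the 3. A match is a description of letters only.

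The CBX proteins bring canonical PRC1 to methylated lysine 27. Cbx7 had levels of 2.90 and 2.83 in wild type, 3.61 and 3.48 in mock, and 3.38 and 3.32 in Flag-Dppa2. All 4 knockout arrays lay above both wild-type arrays, with mock the highest. The mock mean of 3.55 ± 0.09 (SD, n = 2) was 0.68 above the wild-type mean of 2.87 (SE 0.10, 95% interval 0.41 to 0.94, limma adjusted p = 0.0401). The adjusted p was 0.337 with wild type as 1 sample, 0.064 with the replicate block and 0.0603 within the slide shared by wild type and mock. Cbx6 differed by 0.51 (95% interval 0.01 to 1.01, adjusted p = 0.176), and Cbx2, a reader better known from differentiated cells, by -0.07 (-0.30 to 0.16).

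Cbx8, a reader that takes over from Cbx7 when ES cells differentiate, was dim. Its levels were -3.97 and -4.07 in wild type, -4.15 and -4.22 in mock, and -3.04 and -3.60 in Flag-Dppa2. Wild type and mock lay close together, and both Flag-Dppa2 arrays lay above the 4 others. The mock minus wild-type difference of -0.16 (95% interval -0.73 to 0.41) was not called and turned to 0.07 when arrays were scaled to their medians.

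The rest of PRC1 showed no call, although Rybp passed the threshold under some alternatives. Rnf2, also known as Ring1B, the chief H2A ubiquitin ligase of ES cells, had levels of 2.72 and 2.76 in wild type, 3.095 and 3.20 in mock and 2.94 and 3.14 in Flag-Dppa2, all knockout arrays above wild type, with a difference of 0.41 (limma adjusted p = 0.111). The dimmer Rnf2 probe gave 0.18, with both Flag-Dppa2 arrays, at 0.87 and 0.89, below both wild-type arrays, at 1.01 and 0.91. Ring1, the paralogue of Rnf2, differed by 0.11. Rybp, which marks variant PRC1, was at 3.84 and 3.86 in wild type, 4.25 and 4.23 in mock and 4.08 and 4.14 in Flag-Dppa2, a difference of 0.39 for mock with an adjusted p of 0.0788. Rybp was called with median scaling, normexp background correction or an intensity trend. Its dimmer probe gave 0.08, with mock at 1.26 and 0.97 and wild type at 1.02 and 1.05. Phc1 and Phc2, the polyhomeotic subunits that let canonical PRC1 cluster, differed by 0.18 and -0.11.

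In PRC2 none of the 8 measured members was called, although the PRC2 members Phf1, Eed and Ezh2 passed the threshold under some alternatives. Phf1 was called in 5 of 18, as many as Cbx7, and with quantile normalization or the authors' log2 values Phf1 was called and Cbx7 was not. Eed was called with median scaling or an intensity trend, and Ezh2 with normexp background correction. Ezh2, the main lysine 27 methyltransferase of ES cells, had levels of 2.36 and 2.37 in wild type, 2.95 and 3.05 in mock and 3.01 and 3.35 in Flag-Dppa2. All 4 knockout arrays lay above wild type, by 0.64 in mock (SE 0.15, 95% interval 0.24 to 1.03, limma adjusted p = 0.0817). Eed, the subunit that reads the mark and stimulates the enzyme, differed by 0.37 (adjusted p = 0.0854). Suz12, the scaffold of the complex, had a difference of the opposite sign, -0.22 (-0.47 to 0.02), and Ezh1, the weaker methyltransferase, was near zero at -0.06. Both Suz12 probes had a difference below zero, the dimmer one at -0.34.

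The PRC2 accessory proteins guide the complex to chromatin. Phf1, 1 of the 3 Polycomb-like proteins, was at -1.81 on both wild-type arrays, at -1.23 and -1.24 in mock and at -1.19 and -1.03 in Flag-Dppa2. The groups did not overlap, and the mock difference of 0.58 (SE 0.10) had a limma adjusted p of 0.0522. Phf19, another Polycomb-like protein, had levels of 0.40 and 0.47 in wild type, -0.66 and 0.23 in mock, and -0.63 and 0.52 in Flag-Dppa2. In both knockout groups replicate 1 was low and replicate 2 was close to wild type, and the mock difference was -0.65 with a 95% interval of -1.98 to 0.69. Mtf2, the third Polycomb-like protein, differed by 0.23, and Jarid2, which recruits PRC2 in ES cells, by 0.31.

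On the trithorax side none of the 7 measured COMPASS members was called. Ash2l, a core subunit that all COMPASS-type complexes share, had levels of 4.68 and 4.65 in wild type, 5.00 and 5.53 in mock, and 4.99 and 5.70 in Flag-Dppa2. All knockout arrays were above wild type, but the lines differed, and the mock difference of 0.60 had a 95% interval of -0.23 to 1.43. Its dimmer probe gave 0.58. The other shared subunits differed by 0.25 for Wdr5, -0.08 for Rbbp5 and 0.08 for Dpy30. Among the methyltransferases the difference was 0.37 for Kmt2b, which acts at bivalent promoters, 0.11 for Kmt2d, an enhancer enzyme, and 0.00 for Setd1a, with adjusted p of 0.156, 0.569 and 0.988.

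The demethylases likewise gave no call. Kdm5b, which removes methyl groups from lysine 4, had levels of 2.33 and 2.26 in wild type, 2.10 and 1.97 in mock and 2.15 and 2.01 in Flag-Dppa2, below wild type on all 4 knockout arrays, with a mock difference of -0.25 (95% interval -0.54 to 0.04). The dimmer Kdm5b probe, above background on all 6 arrays, gave a mock difference of 0.03, with mock at 0.09 and 0.04 and wild type at 0.003 and 0.07. By that probe Flag-Dppa2 minus mock was -0.52, against 0.04 by the probe used. Kdm6b, which removes methyl groups from lysine 27, differed by 0.12. Kdm6a (Utx), the other lysine 27 demethylase, is the sole X-linked member and escapes X inactivation. It had levels of -1.45 and -1.50 in wild type, -1.28 and -1.32 in mock and -1.34 and -0.97 in Flag-Dppa2, a mock difference of 0.17 (-0.23 to 0.58). Kdm5c, another X-linked demethylase that escapes inactivation, differed by 0.36 (adjusted p = 0.146), and Xist was below background on both wild-type arrays and above it on 1 mock and 1 Flag-Dppa2 array.

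**Figure D2:**
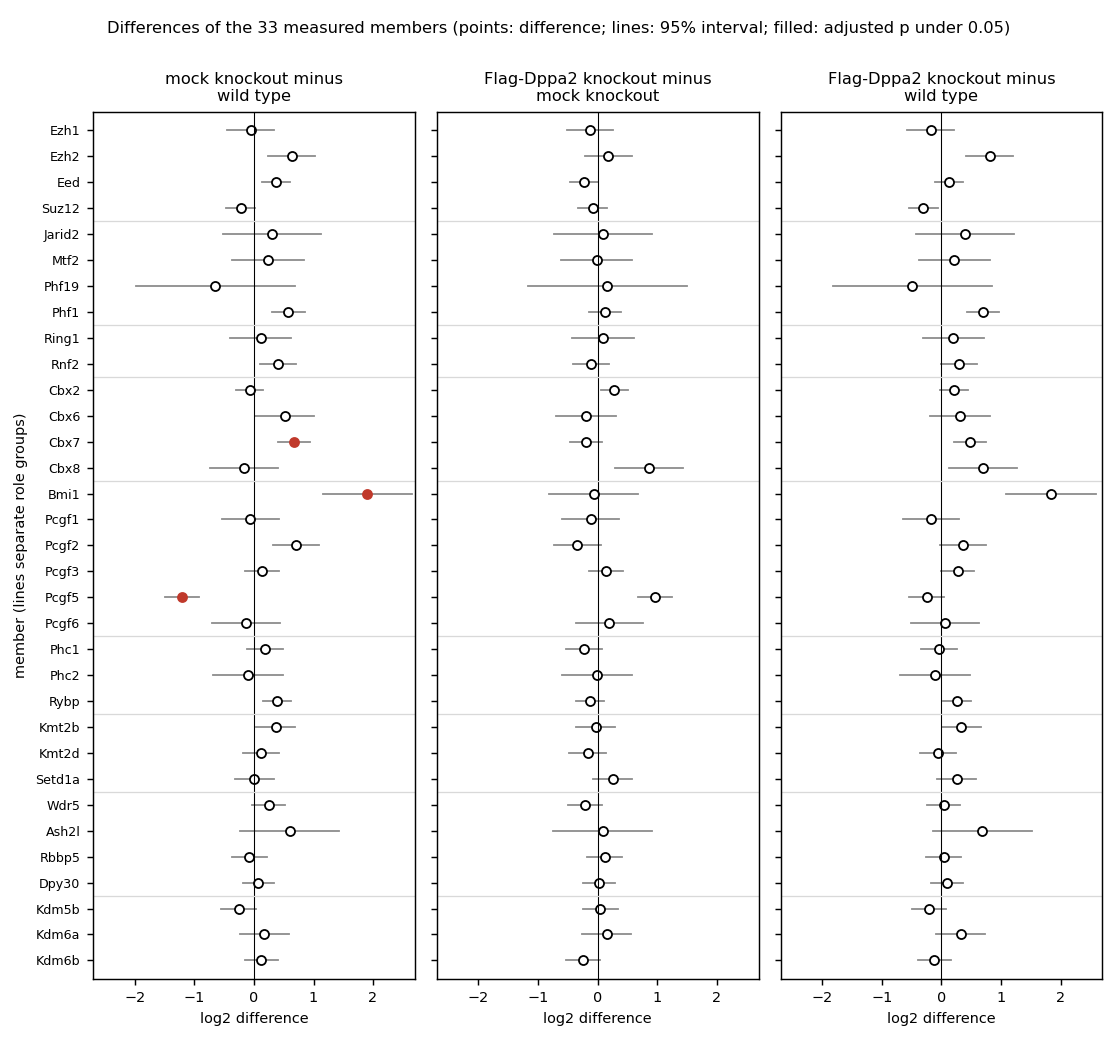
Log2 difference (horizontal axis) of mock minus wild type, Flag-Dppa2 minus mock and Flag-Dppa2 minus wild type, in panels from left to right, for the 33 members ordered by role (vertical axis); horizontal lines are 95% intervals of the limma fit and filled points have an adjusted p under 0.05. Pcgf5 stands at -1.21, 0.96 and -0.25 in the 3 panels and Bmi1 at 1.91, -0.07 and 1.84.

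Across all 4 knockout arrays, 13 of the 33 members (39.4%) lay above both wild-type arrays, where 24.7% of all features did, and 3 (9.09%) lay below, where 17.9% of all features did. The 13 were Ezh2, Eed, Phf1, Rnf2, Cbx6, Cbx7, Bmi1, Pcgf2, Pcgf3, Rybp, Kmt2b, Ash2l and Kdm6a, and the 3 were Suz12, Pcgf5 and Kdm5b. These counts are for the probes used. Dimmer probes of Rnf2, Rybp, Bmi1, Kmt2b and Kdm5b did not keep the separation, that of Kmt2b being above background on 2 arrays. Dimmer probes of Cbx6, Ash2l and Suz12 kept it. The split also depended on the scaling of the arrays. Scaling to the median moved the median difference of all features from 0.05 to 0.28, and then 21 members (63.6%) lay above, against 38.3% of all features, and 0 below, against 9.85%. The knockout groups share their lines and the wild-type arrays, so these counts give no independent support to the mock comparison.

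With Flag-Dppa2 returned, no regulator changed by the test: 0 of 33 members were called against mock, where 0.741% of all features were, 0.704% higher and 0.0373% lower. At an unadjusted p under 0.05 there were 4 members (12.1%), namely Pcgf5, Cbx8, Cbx2 and Eed, against 13.4% of all features. The members' median difference was -0.0048, against -0.01 over all features, and 2 of 33 reached 1.5-fold (6.06%), against 15.5% of all features. These comparisons share the mock arrays with those above, so a value low in mock enters both.

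Pcgf5 came nearest to a call. Flag-Dppa2 exceeded mock by 0.85 in line 1 and by 1.06 in line 2, and the mean of 1.60 ± 0.14 (SD, n = 2) was 1.94-fold above mock (log2 difference 0.96, SE 0.11, 95% interval 0.67 to 1.25, limma adjusted p = 0.0618). The adjusted p was 0.129 with the replicate block, 0.0445 with an intensity trend in the spread model and 0.302 with only the 2 groups compared. That last fit takes no spread from the wild-type arrays. Mmp2, Loxl1 and Fbn1, the fibroblast markers called lower in mock and higher again in Flag-Dppa2, moved with it, and their part in the Pcgf5 difference was not tested. Against wild type, Flag-Dppa2 was lower by 0.25 on the log2 scale, with a 95% interval of -0.54 to 0.04.

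Cbx8 was the other member with a difference past 1.5-fold. It exceeded mock by 1.11 in line 1 and 0.62 in line 2, with a log2 difference of 0.86 (95% interval 0.29 to 1.43) and a limma adjusted p of 0.222. Cbx2 was at 0.15 and 0.14 in wild type, 0.10 and 0.05 in mock and 0.35 and 0.36 in Flag-Dppa2, a difference of 0.28 with an adjusted p of 0.301. Both Flag-Dppa2 arrays of Cbx2 lay above the 4 others.

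For the other 2 members called in mock cells, the difference between Flag-Dppa2 and mock did not pass the test. Bmi1 differed between Flag-Dppa2 and mock by -0.07 with a 95% interval of -0.82 to 0.68, and the sign varied with the line: -0.30 in line 1 and 0.17 in line 2. Cbx7 differed by -0.20 (-0.46 to 0.07), lower in both lines. Pcgf2 differed by -0.34 (-0.73 to 0.05) and Ezh2 by 0.18 (-0.22 to 0.57). The members not named in these paragraphs lay between -0.25 (Kdm6b, a lysine 27 demethylase) and 0.25 (Setd1a, a lysine 4 methyltransferase).

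Against wild type, the Flag-Dppa2 lines again had 0 of 33 members called, where 0.533% of all features were. At an unadjusted p under 0.05 there were 8 members (24.2%), against 21.6% of all features, and 5 reached 1.5-fold (15.2%), against 21.3%. The 5 were Bmi1 at 1.84 (95% interval 1.09 to 2.59, limma adjusted p = 0.079), Ezh2 at 0.81 (0.42 to 1.21, adjusted p = 0.0931), Phf1 at 0.70 (0.43 to 0.97, adjusted p = 0.073), Cbx8 at 0.70 (0.13 to 1.27, adjusted p = 0.175) and Ash2l at 0.68 (-0.15 to 1.51, adjusted p = 0.297). Of the rest, Cbx7 was at 0.48 (0.21 to 0.75) and Suz12 at -0.31 (-0.55 to -0.06), with adjusted p of 0.106 and 0.172, and the lowest was Phf19 at -0.49. The members' median difference was 0.21, against 0.03 over all features. Of the 33, 23 lay above zero, against 9989 of the 18763 features.

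The knockout lines differed from each other in some regulators and, by the probes used, in the same direction with and without Flag-Dppa2. Replicate 2 minus replicate 1 was 0.89 in mock and 1.16 in Flag-Dppa2 for Phf19, 0.53 and 0.71 for Ash2l, and 0.38 and 0.79 for Jarid2. It was 0.41 and 0.45 for Mtf2, 0.39 and 0.33 for Ring1, 0.34 and 0.31 for Pcgf1, and -0.51 and -0.32 for Phc2. These 7 members, which differed by over 0.3 the same way in both groups, were 21.2% of the 33, against 29.0% of all features. Pcgf5, in contrast, was at -0.01 and 0.20. The dimmer Ring1 probe did not keep the direction, at -2.43 and -1.95 in mock and -2.31 and -2.35 in Flag-Dppa2. Dimmer probes of Jarid2 and Mtf2 kept the direction but did not pass 0.3 in both groups, and that of Ash2l did both. The median size of the line difference over the members was 0.13 in mock and 0.20 in Flag-Dppa2, against 0.24 and 0.27 over all features, and 0.06 between the wild-type arrays. With 1 knockout line per mother, line and mother cannot be told apart.

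**Figure D3:**
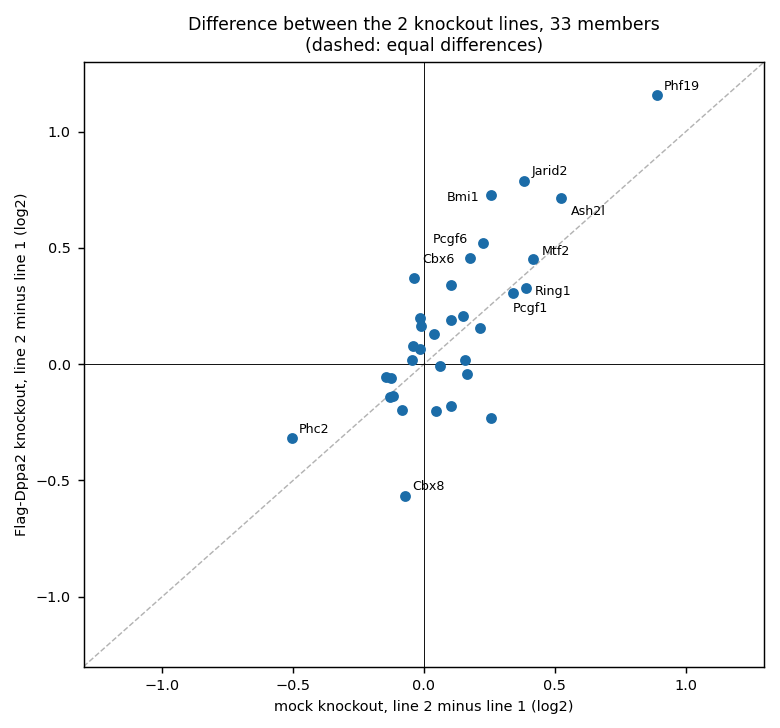
Log2 difference of replicate 2 minus replicate 1 in mock knockout (horizontal axis) and in Flag-Dppa2 knockout (vertical axis), each point 1 of the 33 members, with a dashed line where both are equal. Phf19, Ash2l, Jarid2, Mtf2, Ring1 and Pcgf1 lie above zero on both axes and Phc2 below zero on both; Phf19 is the farthest, at 0.89 and 1.16.

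For 17 members the array held further tested probes, 20 in all, which give a check on the probe used. In mock against wild type, 3 of the 20 differed in sign from the probe used and 1, that of Bmi1, differed from it by at least 0.58 on the log2 scale. In Flag-Dppa2 against mock, 7 of the 20 differed in sign and 1 by at least 0.58. In Flag-Dppa2 against wild type, 6 differed in sign and 2 by at least 0.58. None of the 20 was called by limma at an adjusted p under 0.05. Pcgf5 and Cbx7 had no second probe.

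**Figure D4:**
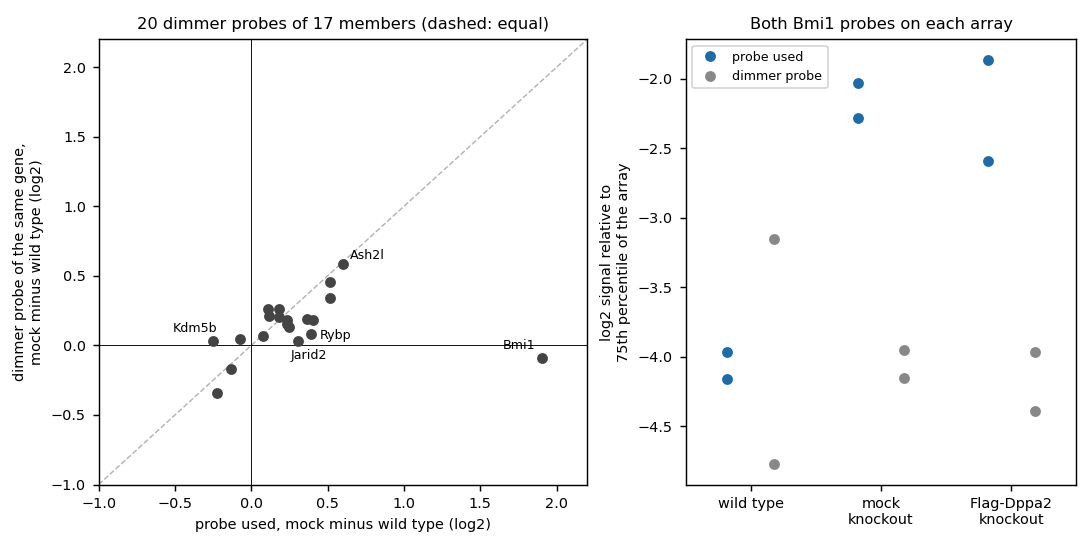
Left, mock minus wild-type log2 difference of each dimmer probe (vertical axis) against that of the probe used (horizontal axis) for 17 members with 20 dimmer probes, with a dashed line where both are equal; right, the level of both Bmi1 probes on each array. The Bmi1 pair stands off the line at 1.91 and -0.09, and the Ash2l pair lies on it at 0.60 and 0.58.

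Of 74 other genes of these systems, listed by complex, 64 were tested. In mock against wild type 1 was called higher and 1 lower (3.12%, against 6.12% of all features), with a median difference of 0.07, and 0 were called in either Flag-Dppa2 comparison. The lower one was Bcor, the X-linked scaffold of the Pcgf1 variant of PRC1, at 1.74 on both wild-type arrays, 0.65 and 1.01 in mock and 1.52 and 1.54 in Flag-Dppa2. Both mock arrays lay below the 4 others, with a difference of -0.91 (SE 0.15, limma adjusted p = 0.0457) and a Flag-Dppa2 minus mock difference of 0.70 (adjusted p = 0.173). The higher one was Bcl7b, a subunit of the BAF remodelling complex, at -2.09 and -1.99 in wild type, -1.39 and -1.16 in mock and -1.60 and -1.47 in Flag-Dppa2, a mock difference of 0.77 (SE 0.13, adjusted p = 0.0484). None of the 4 further PRC2 genes, the 8 PR-DUB and H2A deubiquitinase genes, the 4 PhoRC genes, the 13 further COMPASS genes or the 7 other trithorax genes tested was called.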

How the data were processed

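RNA of 6 ES cell samples was hybridised to Agilent 1-colour whole mouse genome arrays. Per the file headers, intensity values (background-subtracted, linear, not scaled between arrays) were made with Agilent Feature Extraction 10.7.3.1 and build mm9. The authors' deposited log2 values, made with GeneSpring per the labels, served as an alternative; their scale is log2, without centring, with a median of 5.84 in every column. Control and outlier spots were left out, spots of a probe averaged, and probes named through RefSeq accessions in the files and tables of GRCm38.p6. Log2 signals minus each array's 75th percentile were fitted for the 3 groups in limma 3.58.1 (R 4.3.3, statmod 1.5.0; prior degrees of freedom 1.41, residual 3). Probes well above background (the majority of their spots) on at least 2 arrays entered, 1 per gene, with Benjamini-Hochberg adjustment over 18763 features and a two-sided threshold of 0.05. The fit was tested on simulated data with 1 spread for all features and groups. That test does not cover the unequal spread between the groups here. Tables and figures were made in matplotlib 3.10.9, pandas 2.3.3 and numpy 2.4.6 under Python 3.11.15.

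The replicate number marks the mother, and in the knockout groups the line. Deviations from group means of same-numbered arrays correlated at -0.04 (wild type and mock), 0.01 (wild type and Flag-Dppa2) and 0.59 (mock and Flag-Dppa2).

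The members and lists were chosen with earlier results of these data known. Values on every array are given for members called, or differing 1.5-fold or more (0.58 in log2), in any comparison; Rnf2, Rybp, Cbx2, Kdm5b and Kdm6a are also given by array, chosen after their values were seen. Other pathway and target genes are named where called, besides Kdm5c and Xist, named beside Kdm6a by rule, and those said to be chosen after their values were seen. Alternatives changed the scaling, background correction, filter, probe, spread model, samples and block. The files hold no mean signal, so normexp used the median signal; this and the knockout-only fit with the block were added after seeing the files. Numbers of arrays limit the precision.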

Additional observations from a re-analysis of the deposited data

How the results depend on the processing

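Against the 2 members called higher in mock knockout than in wild type, 6 were called with median scaling, 5 with normexp background correction and 4 with an intensity trend, 1 with the mean of a gene's probes, with only the 2 groups compared or within slide 1, and 0 without a filter, with wild type averaged or with the replicate block; leaving out 1 array gave 0 to 1. The 1 member called lower, Pcgf5, was called in 13 of 18 alternatives, 0 with wild type averaged and 0 to 1 with 1 array left out. Bmi1 was called in 10 of 18, Cbx7 in 5, Phf1 in 5, Pcgf2 in 3 and Ezh2 in 1. The 18 are not all separate for mock against wild type. Only the 2 groups compared, within slide 1 and leaving out either Flag-Dppa2 array are 1 and the same fit there. The calls of Pcgf5 and Bmi1 with 1 array left out came only from leaving out a Flag-Dppa2 array, which is not in this comparison. Against mock, Flag-Dppa2 gave 1 higher call (Pcgf5) with an intensity trend and 0 otherwise, the replicate block included; the replicate block ended the calls of Bmi1 and Cbx7 and changed that of no other member. Signs turned for Cbx8 in mock against wild type (0.0682 with median scaling, 0.0753 with quantile normalization, 0.0816 in the series matrix), for the second Bmi1 probe (-0.0912 for mock and -0.217 for Flag-Dppa2 against wild type), and, with 1 array left out, for Flag-Dppa2 against mock in Phf19 (-0.42 to 0.74), Bmi1 (-0.43 to 0.30) and Ash2l (-0.27 to 0.44) and for Flag-Dppa2 against wild type in Phf19 (-1.07 to 0.0876); Ash2l also turned against mock with median scaling (-0.0344) and by its other probe (-0.0376); the cause was not tested. Of all 483 single-gene values under alternatives, 433 kept direction and side of the threshold. Over all features, 1149 calls in mock against wild type became 2369 with median scaling, 494 with the replicate block and 0 with wild type averaged (2281 at an unadjusted p under 0.05), and their share of higher calls went from 40.4% to 71.9% with median scaling. Without 1 wild-type array the remaining one was assumed to vary like the other groups. Normexp on the mean signal and slide as a block across the Flag-Dppa2 comparisons were not run, the former for lack of that column and the latter because slide and group coincide.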

Other observations

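Genes that Polycomb marks in ES cells, a list of 61 developmental regulators and cell cycle inhibitors of which 45 were tested, included 8 called higher and 4 called lower in mock than in wild type. Barx1, Zic1, Lhx5, Isl1 and Hoxa9 were below background on both wild-type arrays and entered the test only through the knockout arrays, where they are high, and the listed genes that were not tested fell out by the same filter, so these counts are a description and are not set against all features. With wild type counted as 1 sample none of these calls remained. Among the called genes, the 6 with the largest fitted differences, some of them against a group below background, were Barx1, at least 12.2-fold higher in mock, Dmbx1, higher by 3.97 on the log2 scale, Zic1, at least 4.48-fold higher, Nkx2-5, at least 5.68-fold lower, Fgf8, at -2.78, and Lhx5. Lhx5, a homeobox gene of the forebrain, was below background in wild type at -5.54 and -5.39. It reached -2.88 and -3.47 in mock and -2.64 and -3.58 in Flag-Dppa2, at least 3.20-fold higher in mock. Of the other 6, named after their values were seen, Zic2, of neural patterning, was at -3.58 and -4.12 in wild type. In mock it was below background, at -5.61 and -6.24, at least 2.83-fold lower than in wild type. In Flag-Dppa2 it was at -3.79 and -3.54. Cdkn1c, an imprinted inhibitor of the cell cycle, was at 2.07 and 2.15 in wild type, 3.40 and 3.51 in mock and 3.84 and 3.57 in Flag-Dppa2. It was the sole gene of the list called in Flag-Dppa2 against wild type, at 1.60 (limma adjusted p = 0.040). Isl1 was at least 2.83-fold and Hoxa9 at least 1.04-fold higher in mock, Lhx2 was higher by 1.297 on the log2 scale, and Lhx1, of the organizer, was at -0.84. Lhx1 was below background on mock replicate 1 and Flag-Dppa2 replicate 2, with mock levels of -5.27 and -5.32, so its difference is against a group near background. A bound takes, on each dim array, the higher of the lowest signal well above background and the probe's own signal.

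Cdkn2a, the classical target of Bmi1, was at -3.11 and -3.37 in wild type, -2.55 and -1.99 in mock and -2.15 and -1.19 in Flag-Dppa2. All 4 knockout arrays lay above both wild-type arrays, and the mock difference of 0.98 was not called (limma adjusted p = 0.208, 95% interval -0.08 to 2.03). Against mock, 0 of the 45 target genes tested were called in Flag-Dppa2 by limma and 15 had an unadjusted p under 0.05. The same limit from the filter holds, so this count is a description and is not set against all features. Zfp42 (Rex1) is on the PhoRC list and is also among the pluripotency markers. It was at 3.57 and 3.63 in wild type, 3.57 and 6.39 in mock, and 3.56 and 6.35 in Flag-Dppa2. It was high in replicate 2 of both knockout groups alone. Kdm2b, the CpG-binding subunit of the Pcgf1 complex, was at 1.78 on both wild-type arrays, 2.66 and 2.18 in mock and 2.60 and 1.79 in Flag-Dppa2, high in replicate 1 of both knockout groups. Zfp42, Kdm2b and Cdkn2a were chosen after their values were seen.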
